A study of Rattus norvegicus with 4 samples.

Results

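The MAP kinase phosphatases are the Dusp enzymes that switch off MAP kinases by removing phosphate from both the threonine and the tyrosine of the kinases' activation loop. Some act in the nucleus and are made as part of the early response to a stimulus (Dusp1, Dusp2, Dusp4, Dusp5). Others stay in the cytoplasm and act mainly on ERK (Dusp6, Dusp7, Dusp9), and a further set prefers the stress kinases JNK and p38 (Dusp8, Dusp10, Dusp16). Several of these genes are themselves transcribed in response to MAP kinase activity, so that they work as negative feedback. The 10 members were found by symbol among the 32623 genes of the deposited table, and each symbol had 1 row.

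RNA was sequenced from rat tendon stem/progenitor cells (TSPCs), which are fibroblast-like cells of tendon that can divide and differentiate. The control group was 2 libraries of cells given DMSO, the solvent, and the treated group was 2 libraries of cells given U0126, a small molecule that inhibits the MEK kinases and so the phosphorylation of ERK. The comparison asks which transcripts differ when this step is blocked. Strain, age, passage, dose and exposure time are not given in the labels. The labels call the libraries of a group biological replicates and name no animal or culture. The p-values below therefore reflect the spread among these libraries, which may be technical.

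Total counts lay between 36888913 and 42785190 per library. Of the tendon markers, Scx and Col1a1 were present in every library. Tnmd, which marks mature tenocytes, was near absent, with 7 counts in the 2 control libraries together and 2 with U0126. With U0126, 7 of the 11 tendon markers tested were higher and 1 lower (edgeR adjusted p under 0.05). Among all tested genes, 8.41% were higher and 11.5% lower. Leukocyte markers were low, with Ptprc, Aif1 and Tyrobp at 0 in all libraries, although Cd14 had between 389 and 517 counts in each. Endothelial markers were low too, with Cdh5, Tie1 and Emcn at 0. All 8 proliferation markers were lower with U0126, and their summed level went from between 341 and 357 TPM in the controls to between 36.7 and 50.4 TPM (a level scaled to gene length and library). Skeletal muscle markers summed to between 243 and 281 TPM in the controls and between 99.6 and 152 TPM with U0126. Nearly all of this sum was Acta1, at 233 and 273 TPM in the controls and 96.4 and 148 TPM with U0126. Schwann and neural markers went from between 9.54 and 15.5 TPM to between 29.7 and 49.2 TPM. Nearly all of that sum was S100b, at 15.1 and 8.83 TPM in the controls and 47.3 and 28.7 TPM with U0126. Of the tested genes, 4 of 5 muscle markers were lower and 2 of 2 Schwann and neural markers higher (edgeR adjusted p under 0.05). The muscle markers Pax7 and Ckm and the Schwann marker Sox10 were at 0 in all libraries. Some markers moved against the rest of their list. The tested muscle marker not called was Myh3, with a log2 fold change of 1.25 (edgeR adjusted p = 0.0982). U0126 libraries held 25 and 8 Myog counts, against 6 and 0 with DMSO. For Mbp, of the Schwann and neural list, they held 2 and 0, against 6 and 4. Neither Myog nor Mbp was tested. The part of these marker shifts in the values below was not tested. In bulk RNA, fewer cells of a type and less RNA per cell cannot be told apart.

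Upstream sequences of the members that fell are shown first, because the members differ in which regulatory motifs these windows hold. RefSeq promoter windows (build GRCr8) matched 9 of the 10 members by symbol, all but Dusp4, and the 250 bases before each annotated start were read. These coordinates are of GRCr8 and differ from the rn6 positions of the deposited table. The search covered 6 motifs on both strands. They were the cAMP response element (CRE, TGACGTCA), the AP-1 site (TGANTCA), an ETS site (CCGGAAGT), the E-box (CACGTG), the E2F site (TTTCCCGC, TTTCGCGC, TTTGCCGC or TTTGGCGC) and the CArG box, which binds the serum response factor. Motifs are in capitals, all 4 genes lie on the plus strand, and each sequence is written 5′ to 3′.
Dusp1, chr10:17184603-17184852: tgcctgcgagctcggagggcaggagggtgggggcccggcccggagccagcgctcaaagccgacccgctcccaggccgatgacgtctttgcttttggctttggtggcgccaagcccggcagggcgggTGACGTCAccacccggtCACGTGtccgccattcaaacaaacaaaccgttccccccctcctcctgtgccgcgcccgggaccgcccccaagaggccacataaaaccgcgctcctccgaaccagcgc
Dusp5, chr1:262543524-262543773: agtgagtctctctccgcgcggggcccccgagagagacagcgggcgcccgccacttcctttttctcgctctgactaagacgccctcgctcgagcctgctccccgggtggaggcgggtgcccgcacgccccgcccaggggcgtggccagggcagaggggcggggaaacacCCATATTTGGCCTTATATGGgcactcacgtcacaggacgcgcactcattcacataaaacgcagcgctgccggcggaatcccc
Dusp6, chr7:35979354-35979603: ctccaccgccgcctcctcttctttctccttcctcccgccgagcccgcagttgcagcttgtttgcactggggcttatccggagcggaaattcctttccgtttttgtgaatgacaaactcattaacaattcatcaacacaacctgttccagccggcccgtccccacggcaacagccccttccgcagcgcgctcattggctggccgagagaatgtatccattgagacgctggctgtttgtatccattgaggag
Dusp10, chr13:98145643-98145892: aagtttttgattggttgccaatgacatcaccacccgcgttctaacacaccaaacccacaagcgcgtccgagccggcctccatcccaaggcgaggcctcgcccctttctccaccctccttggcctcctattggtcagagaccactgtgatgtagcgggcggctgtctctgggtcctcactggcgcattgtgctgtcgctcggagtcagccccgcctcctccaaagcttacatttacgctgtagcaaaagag

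In the Dusp5 window, a pair of CArG boxes stand end to end, CCATATTTGG at 82 to 73 and CCTTATATGG at 72 to 63 bases before the start. Such a motif occurred at least once in 1.50% of the 33469 windows of this length in the table, and 7 windows held at least 2. The Dusp1 window holds a CRE 124 to 117 bases and an E-box 107 to 102 bases before the start. Those motifs occurred in 1.59% and 5.59% of all windows, and together in 47 windows. Neither the Dusp6 nor the Dusp10 window holds any of the 6 motifs as spelled. Dusp2 holds an E-box, so that 3 of the 9 matched members had a motif, against 18.3% of all windows. None of these motifs overlapped another. The shares over all windows were not matched for base composition. G and C made up 68.8%, 68.4% and 67.2% of the Dusp1, Dusp2 and Dusp5 windows, against a median of 51.2% over all windows. A match is a string of letters and not evidence of binding, and the annotated start need not be the one used in these cells.

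Of the 10 members, 8 passed the filter on low counts, and 4 of these were lower with U0126 at an adjusted p under 0.05 (edgeR's quasi-likelihood test, Benjamini-Hochberg adjustment over all tested genes). They were Dusp1, Dusp5, Dusp6 and Dusp10. Among all 14023 tested genes, 11.5% were called lower and 8.41% higher. No member was called higher by edgeR, DESeq2 or limma-voom, and 0 were higher at an unadjusted p under 0.05 in any of these. The median log2 fold change of the 8 tested members was -0.49, against 0.02 for all tested genes. The 4 that fell spanned the 3 role groups. Both U0126 libraries lay below both controls for Dusp1, Dusp5, Dusp6, Dusp7 and Dusp10 among the tested members, a pattern that 31.0% of all tested genes showed.

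**Figure D1:**
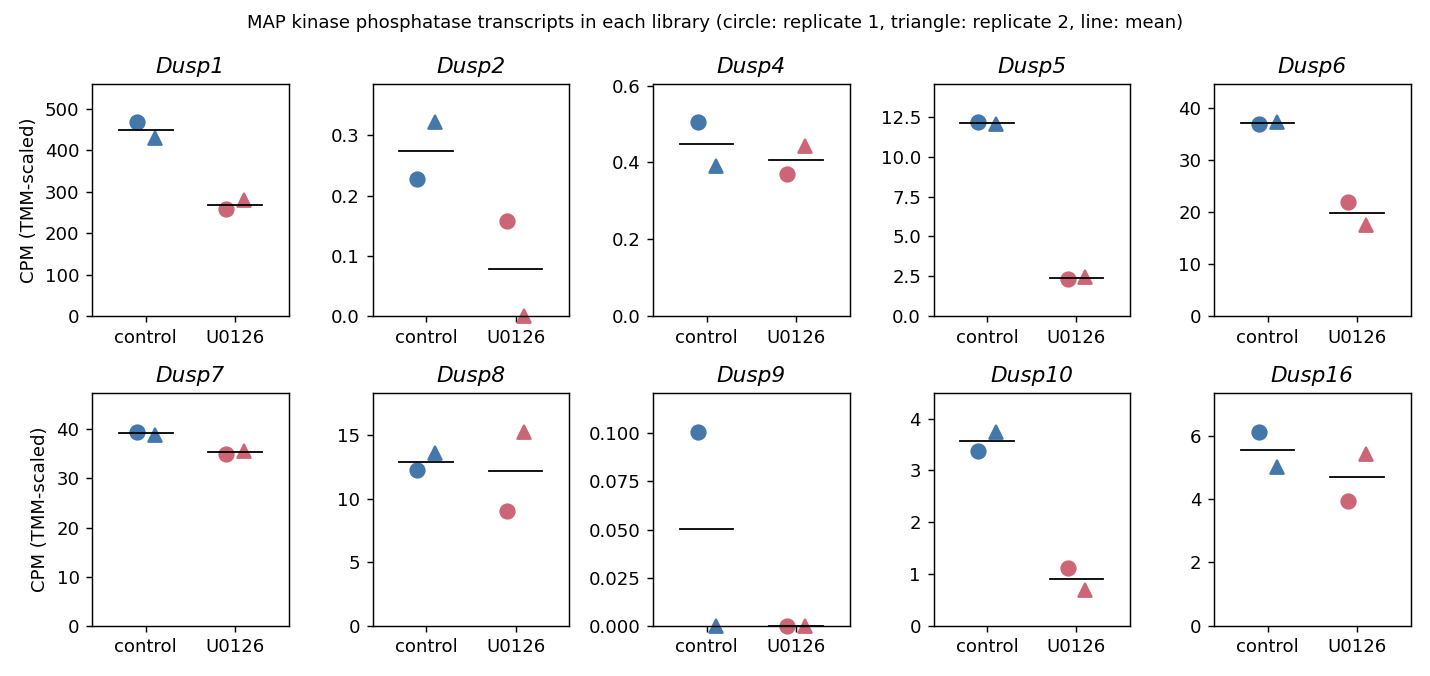
Level of each of the 10 members in each library, as CPM (library-scaled counts, by TMM), on linear axes that start at 0 and differ between panels. Circles are replicate 1, triangles replicate 2 and lines the group mean. The groups are far apart for Dusp1, Dusp5, Dusp6 and Dusp10, while the U0126 libraries lie on either side of the controls for Dusp8.

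Dusp1, the founding member, encodes a nuclear phosphatase of p38, JNK and ERK that is induced by stress and growth factors. It was the most abundant member by far. Its level (chromosome 10, 16970626 to 16973418, rn6) was 467 and 430.2 CPM (counts scaled to library size) in the controls and 258 and 279.9 CPM with U0126. The groups did not overlap, and the distance between them was several times the distance within either. Dusp1 fell 1.67-fold (log2 fold change -0.74 ± 0.10 SE, edgeR adjusted p = 0.00258, n = 2 per group).

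Dusp5, the nuclear phosphatase selective for ERK, fell 5.03-fold. Its log2 fold change was the lowest of the tested members with all libraries, but that of Dusp10 was lower without U0126 replicate 1 (-2.36 against -2.30), and the interval of Dusp10 includes the Dusp5 estimate. Its level (chromosome 1, 274245184 to 274258595, rn6) was 12.2 and 12.0 CPM in the controls and 2.35 and 2.46 CPM with U0126. The libraries of each group were nearly level, with 89 counts in each U0126 library against 482 and 524 in the controls. The log2 fold change was -2.33 ± 0.17 SE (edgeR adjusted p = 2.66e-04, n = 2 per group). Of all tested genes, 2.05% had a lower log2 fold change.

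Dusp2 and Dusp4, the other nuclear members, were at the edge of detection. Dusp2 (chromosome 3, 119776925 to 119779099, rn6), best known from activated leukocytes, had 9 and 14 counts in the control libraries and 6 and 0 in those given U0126. It did not pass the filter and was not tested. The pooled ratio of U0126 to control was 0.293, with a 95% exact Poisson interval of 0.0975 to 0.739 that covers counting error only. With no filter the gene was fitted and was not called (edgeR adjusted p = 0.453). The summed level of the 9 leukocyte markers found moved in the same direction, from between 21.3 and 25.0 TPM to between 13.3 and 13.5 TPM, and 1 of the 5 tested was called lower. The marker called was Cd74. Cd14, the largest part of the sum, was not called (edgeR adjusted p = 0.441), and Ptprc, Aif1 and Tyrobp were at 0 in all libraries. Whether any leukocytes contributed to the Dusp2 counts was not tested.

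Dusp4 (chromosome 16, 61078175 to 61091169, rn6), a close relative of Dusp1 and a frequently used readout of ERK activity in tumour cells, had 20 and 17 counts in the control libraries and 14 and 16 in those given U0126. The groups overlapped once scaled to depth, at 0.504 and 0.390 against 0.369 and 0.442 CPM. Its log2 fold change was -0.14, with a 95% interval of -1.34 to 1.06. At this depth a change of 2-fold in either direction was not detectable.

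Dusp6, the cytoplasmic phosphatase that binds and inactivates ERK, fell 1.87-fold. Its level (chromosome 7, 41475163 to 41479392, rn6) was 37.1 and 37.3 CPM in the controls and 22.1 and 17.6 CPM with U0126. The controls were nearly identical, and the U0126 libraries differed from each other by more than counting error (ratio of replicate 1 to 2 of 1.25, 95% exact Poisson interval 1.13 to 1.39). The log2 fold change was -0.91 ± 0.13 SE, with an edgeR adjusted p of 0.00418 (n = 2 per group).

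Dusp7, the nearest relative of Dusp6 and also a cytoplasmic ERK phosphatase, was not called. It stood at 39.5 and 38.9 CPM in the controls and 35.1 and 35.7 CPM with U0126 (chromosome 8, 115069095 to 115076130, rn6). Both U0126 libraries were thus below both controls, by a small distance. The log2 fold change was -0.15 ± 0.09 SE (edgeR adjusted p = 0.317), and its 95% interval of -0.37 to 0.07 does not reach the estimate for Dusp6. Within a library, the ratio of Dusp7 to Dusp6 in TPM was 0.939 and 0.919 in the controls and 1.40 and 1.78 with U0126. Dusp6 was therefore slightly above its relative in the controls and below it in both U0126 libraries. With 2 libraries per group an exact permutation test of such a ratio cannot go below p = 0.333, and none is given.

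Dusp9 (X chromosome, 157168144 to 157172068, rn6), a cytoplasmic member known mainly from placenta and insulin-responsive tissues, had 4 counts in control replicate 1 and 0 in the other libraries. The 0 counts over both U0126 libraries allow up to 0.0405 CPM. No difference was detectable at this depth.

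Dusp10, a phosphatase of JNK and p38, fell 3.94-fold. Its level (chromosome 13, 104284660 to 104321455, rn6) was 3.38 and 3.74 CPM in the controls and 1.11 and 0.690 CPM with U0126. The groups were well apart although the counts were modest, at 134 and 163 in the controls and 42 and 25 with U0126. The log2 fold change was -1.98 ± 0.31 SE (edgeR adjusted p = 0.00559, n = 2 per group). Without control replicate 2 the adjusted p was 0.0667 and the call was lost. Over all alternatives its adjusted p lay between 5.90e-05 and that value.

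Dusp8 and Dusp16, the other phosphatases that prefer JNK and p38, were not called. Dusp8 (chromosome 1, 215030429 to 215033460, rn6) was at 12.3 and 13.6 CPM in the controls and at 9.07 and 15.3 CPM with U0126, so that the U0126 libraries lay on either side of the controls. They differed from each other by more than counting error (ratio of replicate 1 to 2 of 0.594, 95% exact Poisson interval 0.517 to 0.680). The log2 fold change was -0.09 ± 0.24 SE (edgeR adjusted p = 0.831). When U0126 replicate 2 was left out it became -0.52 and Dusp8 was called lower (edgeR adjusted p = 0.0264). When U0126 replicate 1 was left out it was 0.24 (edgeR adjusted p = 0.251). The adjusted p ranged from 0.0264 to 0.989 over its alternatives.

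Dusp16 (chromosome 4, 168472412 to 168517177, rn6) was at 6.13 and 5.01 CPM in the controls and at 3.95 and 5.41 CPM with U0126, and the groups overlapped. Its log2 fold change was -0.25, with a 95% interval of -0.78 to 0.28 (edgeR adjusted p = 0.485). As for Dusp8, replicate 1 was the lower of the U0126 libraries, whereas for Dusp6 and Dusp10 it was the higher.

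**Figure D2:**
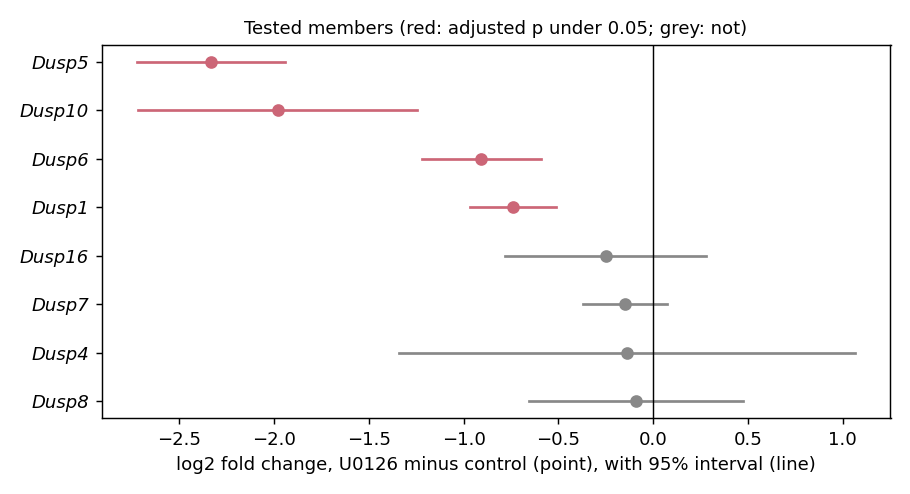
Log2 fold change of U0126 against control for the 8 tested members (points) with 95% intervals (lines). The intervals of Dusp5 and Dusp10 lie wholly below -1, those of Dusp6 and Dusp1 below 0, and those of Dusp16, Dusp7, Dusp4 and Dusp8 include 0.

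Levels per length were compared with the deposited TPM values. In the controls the order was Dusp1 at 416 ± 13.1 TPM, Dusp6 at 24.2 ± 0.762, Dusp7 at 22.5 ± 0.362, Dusp8 at 11.8 ± 1.15, Dusp5 at 8.97 ± 0.178, Dusp16 at 4.18 ± 0.487 and Dusp10 at 2.35 ± 0.233 TPM (SD, n = 2). Dusp2, Dusp4 and Dusp9 were below 1 TPM in every library, and their order is not resolved. With U0126 the order below Dusp1 (239 ± 16.0 TPM) was Dusp7 at 19.5 ± 0.403, Dusp6 at 12.4 ± 1.84, Dusp8 at 10.7 ± 3.95, Dusp16 at 3.38 ± 0.775, Dusp5 at 1.70 ± 0.0714 and Dusp10 at 0.561 ± 0.188 TPM. Dusp6 and Dusp8 did not differ beyond their spread in this group, as 1 U0126 library had more Dusp6 and the other more Dusp8. Dusp5 moved from above Dusp16 in both controls to below it in both U0126 libraries.

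Dusp1 alone made up 85.3% and 84.2% of the summed TPM of the 10 members in the controls and 83.1% and 83.2% with U0126. The sum itself was 498 and 483 TPM in the controls and 274 and 301 TPM with U0126. The share of Dusp1 was thus much the same while the sum was lower in both U0126 libraries. Without Dusp1 the sum went from 73.0 and 76.1 TPM to 46.3 and 50.6 TPM. The JNK and p38 set as a whole was at 17.7 and 19.0 TPM in the controls and 11.4 and 17.8 TPM with U0126, with the difference between the U0126 libraries mainly in Dusp8. These sums were not tested.

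**Figure D3:**
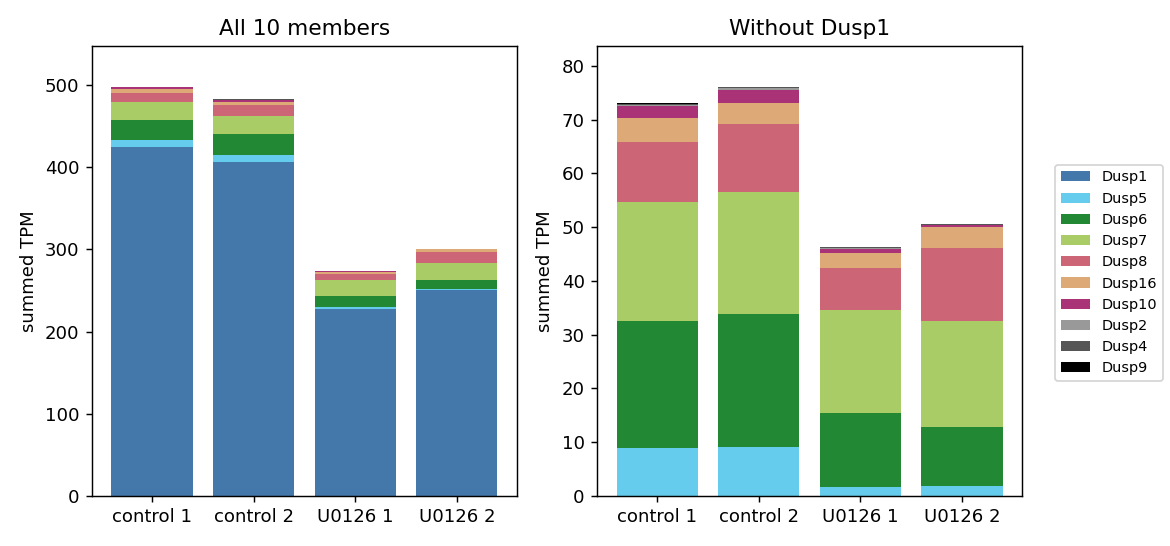
Summed TPM of the members in each library, stacked by gene, with all 10 members on the left and without Dusp1 on the right, where the axis is expanded. The left bars show the weight of Dusp1, and the right bars show the thinner Dusp5, Dusp6 and Dusp10 segments in both U0126 libraries beside a Dusp7 segment of similar height.

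Ratios between members of the same substrate preference were taken within libraries. The ratio of Dusp6 to Dusp5 in TPM was 2.68 and 2.72 in the controls and 8.32 and 6.34 with U0126. Dusp16 was 2.07 and 1.52 times Dusp10 in the controls and 4.08 and 9.17 times with U0126. In both pairs the groups did not overlap, and the second gene of the pair had the lower log2 fold change. Whether the members of a pair differ in their response was not tested.

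Genes whose pattern was most like that of Dusp5 and Dusp6 were sought among 8508 named genes whose log2 CPM averaged at least 3, by the Euclidean distance between log2 CPM values centred on each gene's mean over the 4 libraries. Nearest to Dusp5 were Knstrn, a spindle protein (distance 0.165), Tk1, the thymidine kinase of S phase (0.175), and Taf9, a subunit of the general transcription factor TFIID (0.203). Nearest to Dusp6 were Prim1, the primase subunit (0.0588), Shroom1 (0.0656) and Mfap5, a microfibril protein (0.0780). With 4 libraries in 2 groups, this likeness mostly reflects a fold change of the same size.

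Most atypical dual-specificity phosphatases are smaller than the members and lack their kinase-binding domain. Of 16 such genes listed, 13 were tested and 1 fell, a share near the 11.5% called lower among all tested genes. Their median log2 fold change was 0.01, against 0.02 for all tested genes. The gene that fell was Dusp14, from 21.8 and 20.7 CPM to 9.01 and 9.44 CPM (log2 fold change -1.20 ± 0.13 SE, edgeR adjusted p = 0.00112). Without U0126 replicate 2, 2 of them were lower, and without U0126 replicate 1, 1 was higher.

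Among other phosphatases that act on MAP kinase pathways, 3 of 9 tested fell, against 11.5% called lower among all tested genes, with a median log2 fold change of -0.09. Ppp2r1a, the scaffold subunit of protein phosphatase 2A, fell 1.37-fold (edgeR adjusted p = 0.0190) and Ppm1d, a p53-induced phosphatase of p38, 1.44-fold (edgeR adjusted p = 0.0389). All 3 calls were lost when either control was left out, and 1 remained with the replicate number as a block. Ptprr, a tyrosine phosphatase that binds ERK, was not tested and was chosen after its values were seen. Its counts were 18 and 6 in the controls and 0 in both U0126 libraries. The pooled ratio of U0126 to control has a 95% exact Poisson interval that reaches up to 0.186, for counting error only, and 18 of the 24 control counts came from replicate 1.

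The kinase modules that these phosphatases act on were read against the 11.5% called lower and 8.41% called higher among all tested genes. Of 13 tested genes of the ERK module, 3 fell and 1 rose, with a median log2 fold change of -0.12. Mapk7, which encodes ERK5, rose 1.61-fold (edgeR adjusted p = 0.0116), and Map2k1, a MEK gene, fell 1.28-fold (edgeR adjusted p = 0.0286). All 4 calls were lost when either control was left out, and the 3 falls also with the replicate block. Of 12 tested genes of the JNK and p38 module, Map3k5, the stress kinase ASK1, fell 1.89-fold (edgeR adjusted p = 0.00436) and 11 did not pass, with a median of -0.12. That call was lost without control replicate 1 (0.0588), and 3 genes of the module were lower without U0126 replicate 2.

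ERK feedback and output genes other than the Dusp genes included several that fell. Of 17 tested, 9 fell and 1 rose, with a median log2 fold change of -0.66, against 11.5% called lower among all tested genes. Errfi1, an inhibitor of EGF receptor signalling, went from 26.2 and 24.8 CPM to 9.67 and 9.64 CPM (edgeR adjusted p = 5.19e-04). The ETS factor Etv1 went from 5.42 and 5.17 CPM to 1.11 and 0.966 CPM (edgeR adjusted p = 8.82e-04). Without control replicate 1 the fallen numbered 4, and the gene that rose lost its call when either control or U0126 replicate 1 was left out.

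Of 20 early response genes, which like Dusp1 are transcribed within minutes of a stimulus, 5 fell and 15 did not pass, with a median of -0.38, against 11.5% called lower among all tested genes. The nuclear receptors Nr4a1 and Nr4a3 fell 2.29-fold and 3.72-fold (edgeR adjusted p = 7.70e-04 and 7.78e-04). Leaving out control replicate 1 gave 3 fallen genes, leaving out control replicate 2 gave 2, and leaving out U0126 replicate 2 gave 15. Over all genes the same settings gave 607, 604 and 2506 called lower.

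**Figure D4:**
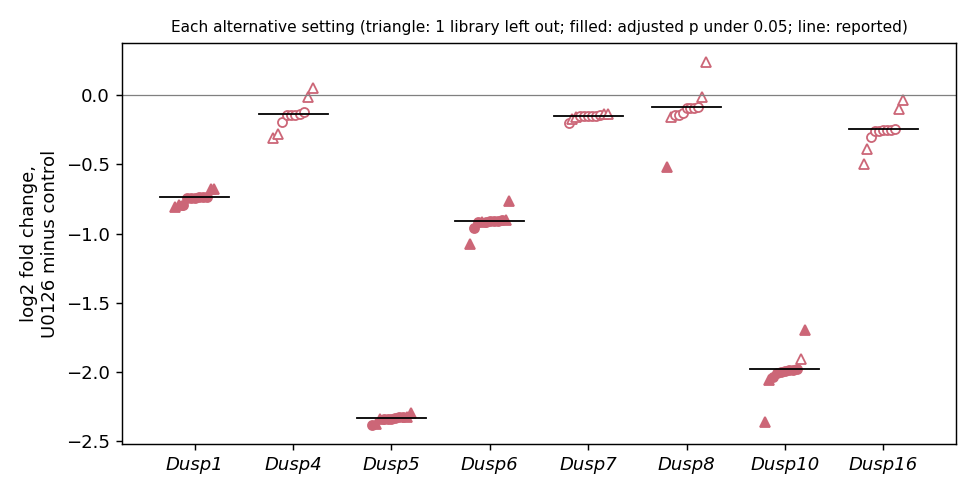
Log2 fold change of each tested member under each alternative setting, with the reported value as a line. Triangles leave out 1 library, circles change the scaling, filter, test or block, and filled symbols have an adjusted p under 0.05. The values of Dusp5 stay between -2.38 and -2.30, while those of Dusp8 run from -0.52 to 0.24.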

How the data were processed

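The deposited table lists every gene with its counts, TPM and FPKM in each of 4 libraries, per the file headers. The counts the authors deposited are whole numbers and not normalized. The deposited TPM values, scaled to gene length and library, were used to compare levels between genes. The deposited FPKM values served only to check that counts and FPKM imply the same length for a member in every library. Build rn6 is from the submitters' processing notes. The sources used here do not give the aligner, counter, strand setting or annotation version, so reads shared by overlapping or similar genes cannot be placed. Libraries were prepared with a standard Illumina protocol after Trizol extraction, per the labels' protocols. Each column was tied to its sample by the letter and number that its header and the sample description share.

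U0126 was compared with control by edgeR 4.0.16 (R 4.3.3): filterByExpr (minimum count 10, minimum total 15), TMM scaling, and the quasi-likelihood F test, two-sided, with Benjamini-Hochberg adjustment over 14023 genes and a threshold of 0.05. Fold changes carry a prior count of 0.125, and the SE is the absolute log2 fold change over the square root of F. CPM values are TMM-scaled. The floor for 0 counts is 3 counts, and Poisson intervals and floors cover counting error only. Alternatives used limma 3.58.1, DESeq2 1.42.0 and other scalings, filters, a replicate block and leaving out each library. On simulated counts the test recovered most of the largest changes it was given and kept its error rate when dispersions followed the fitted trend. Changes as small as those of Dusp1 and Dusp6 were not simulated, nor any change at counts as low as those of Dusp4. When genes had their own dispersions, false calls exceeded the threshold in most simulated sets, and the median gene falsely called was above the trend. The 4 members called had dispersions of 0.679 to 0.998 times the trend, and Dusp8 of 1.89 times. Of all tested genes, 71.3% had a lower ratio to the trend than Dusp6 and 54.8% a lower one than Dusp10. The shares were 46.3% for Dusp1 and 7.39% for Dusp5. These ratios were estimated from the same libraries as the calls, so they cannot tell a true call from a false one.

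The members and lists were chosen with earlier results of these data known. From each of the 6 pathway lists, the 2 genes with the smallest adjusted p were named, or those that passed if fewer. For Dusp5 and Dusp6 the 3 genes of most similar pattern were named. Of 94 listed genes, 93 were found, all but Map3k1. Protein sequences were not used here.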

Additional observations from a re-analysis of the deposited data

How the results depend on the processing

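With 2 libraries per group, precision rests on few samples, and low depth limits Dusp2, Dusp4 and Dusp9. Where a library was left out of a group, the lone sample was assumed to vary like the other group. Dusp1, Dusp5 and Dusp6 kept their direction and call in all 11 alternatives, with adjusted p up to 0.0418, 0.00538 and 0.0498. The count of members called lower was 4 in each alternative with all libraries and 3 to 5 when 1 was left out. Dusp4, not fitted under the stricter filter, ranged from -0.31 to 0.051 on the log2 scale when 1 library was left out, the positive value being without control replicate 1. Dusp8 ranged from -0.52 to 0.24, the positive value being without U0126 replicate 1. Causes were not tested.

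The replicate number as a block left 4 members lower, lost no member's call, and left 0 genes of the ERK module and 1 of the other phosphatases lower. Under the block, 0 ERK output genes and 1 JNK and p38 module gene were higher. The labels do not say that a number marks a shared culture, and the correlation of same-numbered deviations over genes was -0.04. The ERK output gene called higher was 0 also with RLE factors, library totals, DESeq2 and no filter, and 1 JNK and p38 module gene was higher with DESeq2.

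Leaving out 1 library gave 604 to 2506 genes lower and 295 to 2138 higher. Lower counts were 2 to 15 for early response genes, 4 to 13 for ERK output genes, 0 to 4 for the ERK module, 0 to 3 for the JNK and p38 module, 0 to 3 for other phosphatases and 1 to 2 for atypical phosphatases. Higher counts were 0 to 1 in each list except the other phosphatases, where they were 0. No scaling moved the median log2 fold change of all genes by more than 0.1.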

Other observations

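The spread between libraries of the same group was set against counting error for each member, as the ratio of replicate 1 to replicate 2 in TMM-scaled CPM with its 95% exact Poisson interval. Dusp5 and Dusp7 were within counting error in both groups. The Dusp5 ratio was 1.01 (0.890 to 1.14) in the controls and 0.954 (0.703 to 1.30) with U0126, and the Dusp7 ratio was 1.01 (0.947 to 1.09) and 0.983 (0.910 to 1.06). Dusp1 and Dusp16 exceeded counting error in both groups. The Dusp16 ratio was 1.22 (1.01 to 1.48) in the controls and 0.730 (0.587 to 0.908) with U0126. Dusp6 and Dusp8 exceeded it in the U0126 group, in opposite directions, and were within it in the controls, and Dusp4 and Dusp10 were within it in both groups. Dusp2, with 6 and 0 counts in the U0126 libraries, also exceeded it there (lower bound of the ratio 1.12). Dusp9 had counts in 1 library only. No cause of these differences was tested.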
